A study of Mus musculus with 8 samples.

Results

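Expression of 8 genes of the liver X receptor (LXR) and cholesterol efflux pathway, Nr1h3, Rxra, Mylip, Abca1, Abcg1, Apoe, Pltp and Lpcat3, was described in mouse blood monocytes that had or had not taken up latex beads. They are all 8 of a list of symbols, out of 18193 genes measured with a probe set that carries a single gene symbol. The list was chosen with earlier results of these data known, so its counts beside those of all genes are a description. Each gene was read from its brightest probe set on average across the 8 arrays, and its other probe sets served as a check. All 8 had a mean above the background level of 6.98 log2 units, which was set from olfactory, vomeronasal, taste and keratin-associated genes.

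There were 4 groups of 2 arrays, which the series text calls biological replicates: Gr1lo monocytes with beads, Gr1lo monocytes without beads, Gr1hi monocytes with beads and Gr1hi monocytes without beads. Gr1hi cells are the classical, Ly-6C high blood monocytes and Gr1lo cells the nonclassical, Ly-6C low ones. All came from male C57BL/6 mice given fluorescent plain microspheres of 1 µm into a vein, so that the cells without beads had circulated in injected mice too, and the cells were sorted 4 days later. The accounts of clodronate liposomes, which deplete phagocytes, conflict. The series text puts liposomes 3 days ahead of the beads for all cells, whereas the treatment protocol gives them for labelling Gr1hi cells and leaves them out for Gr1lo cells. On the second account, subset and liposome treatment cannot be told apart. The sources used here do not give the age of the mice, the number pooled per array or the number of cells. The p-values measure the spread between the arrays of a group, pooled over the 4 groups.

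LXRs are nuclear receptors that are switched on by oxysterols, the oxidised forms of cholesterol, and bind DNA as a pair with a retinoid X receptor. In macrophages loaded with cholesterol they turn on the transporters that move cholesterol out of the cell, the apolipoproteins that accept it, and a ligase that limits further uptake of lipoprotein. Nr1h3 encodes LXR alpha, the form enriched in liver and macrophages, and Rxra encodes its partner RXR alpha. Abca1 and Abcg1 encode the exporters of cholesterol to lipid-poor apolipoprotein A-I and to high-density lipoprotein. Apoe encodes an apolipoprotein that macrophages secrete and Pltp the phospholipid transfer protein of plasma. Mylip encodes IDOL, a ubiquitin ligase that limits lipoprotein uptake, and Lpcat3 an acyltransferase that puts polyunsaturated fatty acids into membrane phospholipids.

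LXR and its partner recognise direct repeats of a hexamer spaced by 4 bases (DR4), with AGGTCA as the consensus of each hexamer. The 250 bases before each start in the RefSeq promoter table (GRCm38.p6) were searched on both strands for the fewest mismatches to the letters of both hexamers. The table held 11 starts of 7 of the 8 genes, and Abcg1 is named only. The sites nearest to the consensus in Abca1 and in Srebf1, the lipogenic LXR target described further on, are shown because they are alike in letters, with the 2 hexamers in capitals.
Abca1 site: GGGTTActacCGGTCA
Srebf1 site: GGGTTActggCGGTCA
Each differs from the consensus at the same positions, A1G, C5T and A11C, counted from 1 at the 5′ end of the first consensus hexamer. At most 3 mismatches were found in 18.5% of all 32851 promoters. The form in capitals, which the sites share and which was chosen after the Abca1 site had been seen, occurred without a mismatch in 3 promoters (0.00913%), Abca1 and 1 of 3 Srebf1 starts among them. The Abca1 site lay 67 to 52 bases before the start and the Srebf1 site 182 to 167 bases before it, on the opposite strand in each case. A match is a description of letters and not of binding.

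The promoters of Abca1 (chr4:53159896-53160145, minus strand), of Srebf1 (chr11:60210472-60210721, minus strand) and of Nr1h3 (chr2:91195117-91195366, minus strand) are shown as the 250 bases before the start, read along the gene. They are shown because Abca1 and Nr1h3 rose together in bead-carrying Gr1hi cells, while Srebf1 differed there by -0.37 and was not called. Capitals mark the DR4 site as it reads on this strand.
Abca1 promoter: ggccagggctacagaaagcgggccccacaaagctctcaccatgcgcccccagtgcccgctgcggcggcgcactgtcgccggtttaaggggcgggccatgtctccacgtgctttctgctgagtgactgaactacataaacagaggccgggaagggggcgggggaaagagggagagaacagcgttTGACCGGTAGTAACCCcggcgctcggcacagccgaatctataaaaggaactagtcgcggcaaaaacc
Srebf1 promoter: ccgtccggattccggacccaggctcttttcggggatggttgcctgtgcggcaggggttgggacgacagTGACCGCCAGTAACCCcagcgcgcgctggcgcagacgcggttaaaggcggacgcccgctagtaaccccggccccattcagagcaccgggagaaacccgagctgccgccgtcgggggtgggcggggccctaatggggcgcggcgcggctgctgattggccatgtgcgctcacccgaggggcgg
Nr1h3 promoter: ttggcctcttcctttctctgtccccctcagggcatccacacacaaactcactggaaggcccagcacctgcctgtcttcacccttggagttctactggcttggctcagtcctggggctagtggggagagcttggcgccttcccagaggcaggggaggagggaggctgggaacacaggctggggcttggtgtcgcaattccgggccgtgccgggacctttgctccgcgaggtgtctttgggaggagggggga
Neither of the Nr1h3 starts in the table came nearer to the consensus than 4 mismatches. Among the other members, 1 of 2 Rxra starts came within 3 mismatches, and the Apoe, Pltp, Lpcat3 and Mylip windows had at least 4.

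Array medians ran from 6.12 to 6.19 log2 units, and with 2 arrays a group every value here is imprecise. The labels were checked on lists of marker genes, without the Ly6c genes, for which no probe set with a single symbol was used. The mean of 7 classical monocyte markers was 8.49 to 11.01 in Gr1lo cells and 12.33 to 12.65 in Gr1hi cells. The mean of 11 nonclassical markers was 11.96 to 12.22 in Gr1lo cells and 8.75 to 9.23 in Gr1hi cells. Array 1 of the Gr1lo cells without beads stood apart: 11 of 14 tissue macrophage markers were above background on it, against 7 or 8 on every other array. Their mean was 8.74 on that array and 7.07 on array 2 of the same group. The poly-A control transcripts, which are added during labelling, were at 10.44 and 10.45 in Gr1lo cells with beads and 9.27 and 8.68 without beads, and at 9.45 and 9.86 in Gr1hi cells with beads and 7.75 and 8.11 without beads. They were thus higher with beads in both subsets.

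Gr1hi monocytes that carried beads had more of the LXR alpha receptor transcript and of the exporter Abca1 than Gr1hi monocytes without beads. Nr1h3 was at 7.63 and 7.81 log2 units with beads, against 6.72 and 6.75 without. The levels without beads were below background, and the groups did not overlap. The measured difference was 0.98 ± 0.15 (SE; limma, Benjamini-Hochberg adjusted p = 0.0486). With the bead-free arrays set to the background level, Nr1h3 was 1.67-fold higher with beads by the means alone. That value makes no allowance for the spread between arrays. In bulk RNA, fewer cells that express a gene and less RNA per cell cannot be told apart. Its partner Rxra was at 9.30 and 9.22 with beads, against 9.29 and 8.95 without. These ranges overlapped, and the difference of 0.14 had a 95% interval from -0.19 to 0.47.

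Abca1 was at 10.05 on each array with beads, against 9.18 and 9.14 without. The rise of 0.89 ± 0.12, or 1.85-fold, was called (limma adjusted p = 0.0347). The other exporter, Abcg1, was at 11.61 and 11.57 with beads, against 11.21 and 11.19 without. Every array with beads was again the higher, but the difference of 0.39 ± 0.08 missed the threshold over all genes (limma adjusted p = 0.134). Apoe was at 12.27 and 12.39 with beads, against 11.50 and 11.59 without, also without overlap. Its difference of 0.78 ± 0.14, or 1.72-fold, did not pass (limma adjusted p = 0.0872). Pltp was at 9.47 and 9.39 with beads, against 9.80 and 9.63 without, so its arrays with beads were the lower ones. The difference was -0.28 with a 95% interval from -0.68 to 0.11.

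Of the remaining members, Mylip was at 9.68 and 9.71 in Gr1hi cells with beads, against 9.49 and 9.47 without. Lpcat3 was at 9.77 and 9.85 with beads, against 9.69 and 9.60 without. In each the arrays with beads were the higher ones and the difference was not called, with 95% intervals from -0.10 to 0.54 for Mylip and from -0.03 to 0.36 for Lpcat3.

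Taking the 8 genes as a list, 2 rose and 0 fell in bead-carrying Gr1hi cells at an adjusted p under 0.05, where 0.148% of all genes rose and 0.0989% fell. At an unadjusted p under 0.05 were 4 members, beside 9.93% of all genes. Their median difference was 0.30, against -0.02 over all genes. In 6 of 8 members every array with beads was above every array without, which 19.2% of all genes also showed, and in 1 of 8, Pltp, every array with beads was below, as in 25% of all genes. Without any 1 of the 4 Gr1hi arrays no member kept its call, and over all genes few or no calls were left either. Such fits leave 1 array in a group. With 1 of the 8 arrays left out, the difference ran from 0.89 to 1.07 for Nr1h3 and from 0.87 to 0.91 for Abca1. Over 18 alternatives Nr1h3 lost its call in 10 (difference 0.89 to 1.07, adjusted p = 0.0117 to 0.353), Abca1 lost it in 5 (0.73 to 0.93, adjusted p = 0.00549 to 0.257) and Apoe gained one in 5 (0.72 to 0.84, adjusted p = 0.0257 to 0.488).

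Markers of other cells and of the subsets also differed with bead state in Gr1hi cells. The tissue macrophage markers had a mean of 7.54 and 7.53 in Gr1hi cells with beads, against 7.16 and 7.18 without, and 0 of 14 were called. The complement genes of that list had larger differences than Nr1h3 and Abca1, with every array with beads above every array without: C1qa by 1.36 ± 0.79, C1qb by 1.37 ± 0.67 and C1qc by 1.31 ± 0.75 (SE; limma adjusted p = 0.624, 0.555 and 0.616). C1qb was at 11.25 and 11.22 with beads, against 9.82 and 9.90 without. C1qa was at 8.66 and 8.65 with beads, against 7.24 and 7.36 without. The SEs pool the spread of all groups, and C1qa was at 11.37 and 8.16 in Gr1lo cells without beads. They are thus wider than the spread of the Gr1hi arrays. On each of these arrays 7 of 14 markers were above background, the complement genes, Adgre1, Mrc1, Siglec1 and Axl. Vsig4, Cd163, Timd4, Marco, Cd5l and Clec4f, which mark resident macrophages, were below it, as was Vcam1. Of the 14 differences with beads, 11 were positive and 3 negative, with a median of 0.18 against -0.02 over all genes. Mrc1 differed by 0.40, Axl by 0.29 and Vcam1 by 0.24. The nonclassical monocyte markers, which are higher in Gr1lo cells as Nr1h3 and Apoe are, averaged 9.12 and 9.23 in Gr1hi cells with beads, against 8.75 and 8.85 without. Of these 11 markers 9 were higher with beads, 3 of them called. The other 2, Cx3cr1 (-0.38) and Pou2f2 (-0.17), were lower and not called. The classical markers averaged 12.33 and 12.36 with beads, against 12.60 and 12.65 without. Neutrophil markers were at a mean of 8.45 and 8.13 with beads, against 9.06 and 8.77 without. The part of these markers and of the poly-A controls in the result was not tested.

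**Figure D1:**
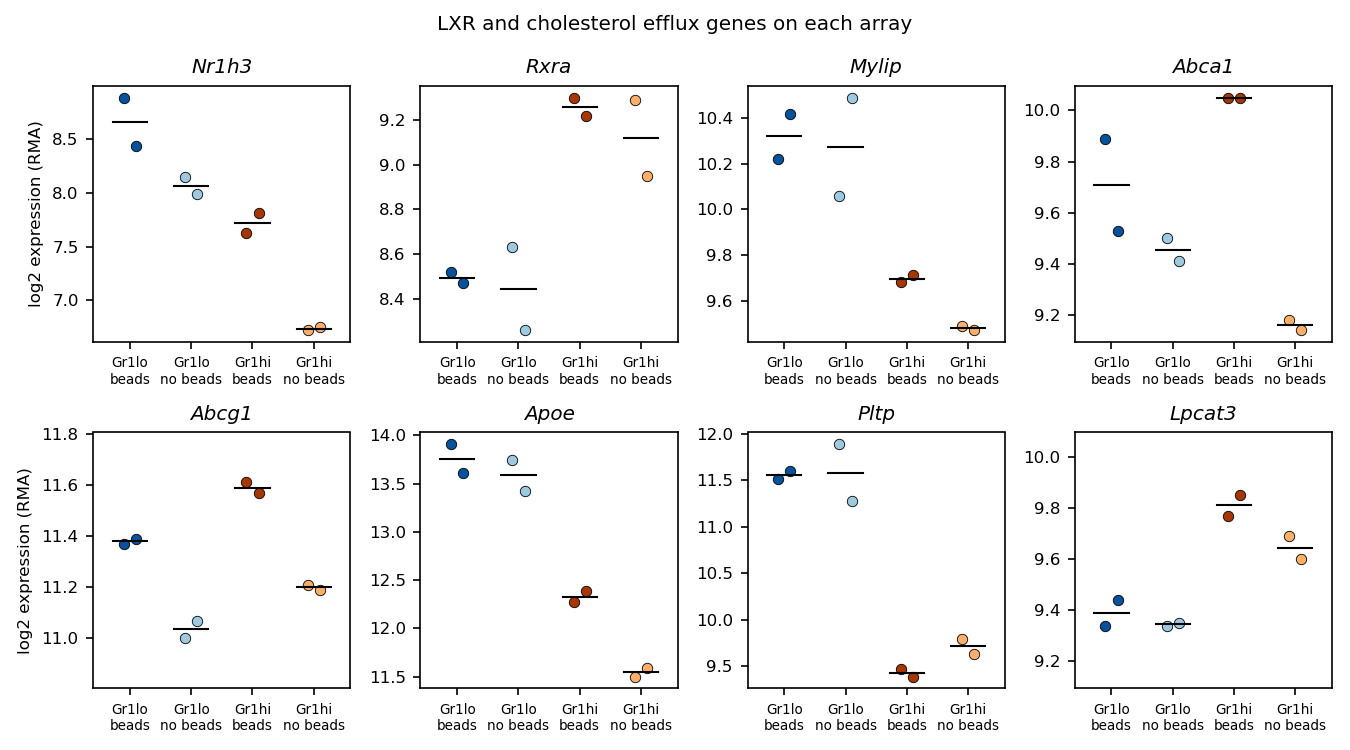
Log2 expression of each of the 8 genes on every array, by group; each point is 1 array, the bar is the group mean, and the vertical scale differs between panels. Abca1 sits at 10.05 on each Gr1hi array with beads and at 9.18 and 9.14 without, while Apoe and Pltp are separated by subset.

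In Gr1lo monocytes 0 of 8 members were called with beads against without, where limma called 0.0824% of all genes higher and 0.143% lower. At an unadjusted p under 0.05 there were 2 members, Nr1h3 and Abcg1, beside 13.2% of all genes. Nr1h3 was at 8.89 and 8.44 in Gr1lo cells with beads, against 8.15 and 7.99 without. The groups did not overlap, and the difference was 0.59 ± 0.15, or 1.51-fold (limma adjusted p = 0.18). Abcg1 was at 11.37 and 11.39 with beads, against 11.00 and 11.07 without. This difference of 0.35 ± 0.08 was of a size close to that in Gr1hi cells and was likewise not called (limma adjusted p = 0.153). It was called with trend and robust estimation in limma, at an adjusted p of 0.0421 in a range of 0.0421 to 0.465 over the alternatives.

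Abca1 was at 9.89 and 9.53 in Gr1lo cells with beads, against 9.50 and 9.41 without, a difference of 0.26 with a 95% interval from -0.02 to 0.53. The lower array with beads was only just above the arrays without. Without array 1 of the Gr1lo cells with beads the difference was 0.07. Apoe was at 13.91 and 13.61 with beads, against 13.75 and 13.42 without, and these ranges overlapped (0.17, 95% interval -0.14 to 0.48). Pltp was at 11.52 and 11.60 with beads, against 11.89 and 11.28 without. The cells without beads spanned those with beads, and the difference was -0.03 with a 95% interval from -0.42 to 0.37.

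Rxra was at 8.52 and 8.47 in Gr1lo cells with beads, against 8.63 and 8.26 without. Mylip was at 10.22 and 10.42 with beads, against 10.06 and 10.49 without. Lpcat3 was at 9.34 and 9.44 with beads, against 9.34 and 9.35 without. All of these overlapped, with differences of 0.05, 0.05 and 0.04 in that order. The median of the 8 differences was 0.11, against 0.02 over all genes, and 3 of 8 members had every array with beads above every array without, beside 23.3% of all genes. Without array 1 of the Gr1lo cells without beads, the array with the macrophage markers, the differences were 0.67 for Nr1h3, 0.30 for Abca1, 0.31 for Abcg1, 0.34 for Apoe, 0.28 for Pltp and -0.17 for Mylip, and 0 of 8 were called. The bead-free Gr1lo arrays also held more of the classical monocyte markers, whose mean was 8.62 and 8.49 in Gr1lo cells with beads, against 11.01 and 10.26 without, with 4 of 7 called lower. Dendritic cell markers averaged 6.61 and 6.57 with beads, against 7.33 and 7.32 without. Of these 7 markers 4 were lower with beads and 3 higher. The 2 called were Cd209a (-3.13) and Kmo (-1.35), which had the largest differences. The part of these markers in the result was not tested.

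**Figure D2:**
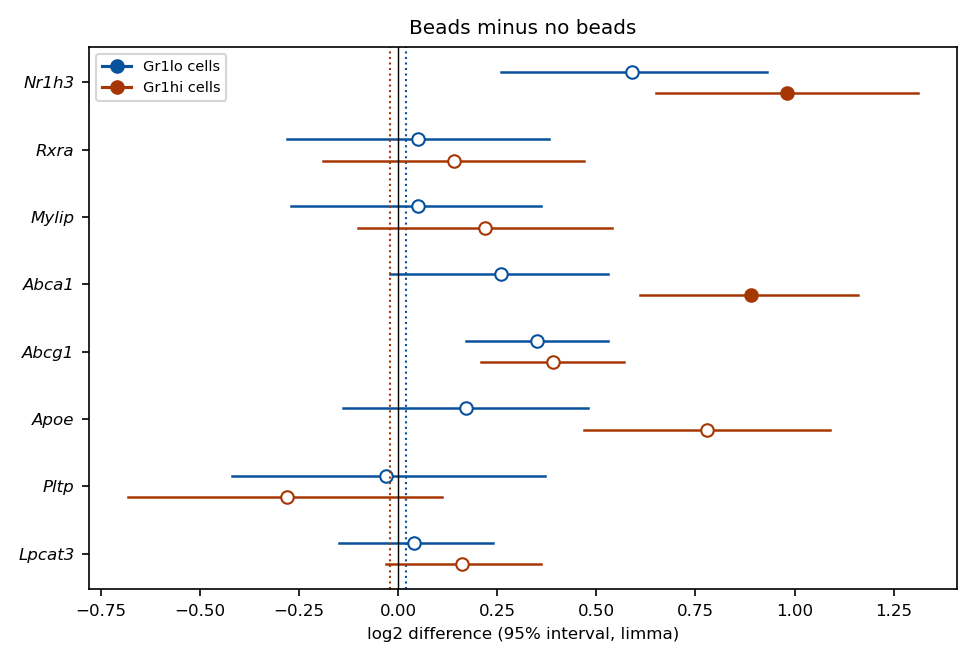
Log2 difference of bead-carrying minus bead-free cells for each gene, in Gr1lo and in Gr1hi cells, with 95% intervals from limma; filled points passed an adjusted p under 0.05, open ones did not, and dotted lines mark the median of all genes in each subset. Nr1h3 (0.98, against a level below background) and Abca1 (0.89) in Gr1hi cells are the filled points.

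Averaged over both subsets, 3 of 8 members rose with beads and 0 fell, where 0.275% of all genes rose and 0.489% fell. Nr1h3, below background in Gr1hi cells without beads, rose by a measured 0.79 ± 0.10 (limma adjusted p = 0.0186), Abca1 by 0.57 ± 0.08 (adjusted p = 0.0295) and Abcg1 by 0.37 ± 0.06 (adjusted p = 0.0316). These are also the 3 members in which the arrays did not overlap in either subset, which 5.85% of all genes showed in the same direction. The difference of Apoe, 0.48 ± 0.10, missed the threshold (limma adjusted p = 0.0764). Without any 1 of the 4 Gr1hi arrays no member kept its call, and calls over all genes became fewer too. Without array 1 of the Gr1lo cells without beads, Nr1h3 alone kept its call. With 1 array left out, the differences ran from 0.67 to 0.90 for Nr1h3, 0.48 to 0.66 for Abca1 and 0.35 to 0.38 for Abcg1.

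The bead effects were set against each other by the test of their difference, Gr1lo minus Gr1hi. It was negative in 7 of 8 members and called in 0 of 8, where limma called 0.011% of all genes higher and 0.033% lower. At an unadjusted p under 0.05 were 2 members, Abca1 and Apoe, beside 7.84% of all genes. For Abca1 the bead effect was 0.26 in Gr1lo and 0.89 in Gr1hi cells, a difference of -0.63 with a 95% interval from -1.02 to -0.24 (limma adjusted p = 0.521). For Apoe it was 0.17 in Gr1lo and 0.78 in Gr1hi cells, a difference of -0.61 with a 95% interval from -1.05 to -0.17 (limma adjusted p = 0.575). For Abcg1 the interval of the difference, -0.29 to 0.21, was the narrowest of the 8 and included 0. None of these differences passed after correction over all genes.

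Between the subsets the members split. In Gr1lo relative to Gr1hi cells without beads, Nr1h3, Mylip, Apoe and Pltp were higher and Rxra and Lpcat3 lower, 6 of 8 called by limma, where 23.6% of all genes were called, 10% higher and 13.6% lower. With beads the same 6 genes were called in the same directions, where 26.5% of all genes were called, 11.8% higher and 14.6% lower. The median of the 8 differences was 0.54 without beads and 0.21 with beads, against -0.07 and -0.03 over all genes. Apoe was the member with the lowest adjusted p without beads: it averaged 13.59 ± 0.23 (SD, n = 2) in Gr1lo and 11.55 ± 0.07 in Gr1hi cells, a difference of 2.04 ± 0.14 (SE), or 4.11-fold (limma adjusted p = 3.05e-05). With beads it averaged 13.76 ± 0.21 in Gr1lo and 12.33 ± 0.08 in Gr1hi cells (SD), or 2.70-fold. Pltp, the other lipoprotein gene, was 3.66-fold higher in Gr1lo than in Gr1hi cells without beads (1.87 ± 0.17, limma adjusted p = 0.000159) and 4.36-fold higher with beads (2.13 ± 0.17, limma adjusted p = 5.91e-05).

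The receptor and its partner went opposite ways. Nr1h3 differed by a measured 1.33 ± 0.15 log2 units in Gr1lo relative to Gr1hi cells without beads (limma adjusted p = 0.000381). With these Gr1hi arrays, which were below background, set to that level, Nr1h3 was 2.13-fold higher by the means alone. It was 0.95 ± 0.15 higher in Gr1lo than in Gr1hi cells with beads (limma adjusted p = 0.00166). Rxra differed by -0.68 ± 0.15 in Gr1lo relative to Gr1hi cells without beads and by -0.77 ± 0.15 with beads (limma adjusted p = 0.0104 and 0.00482). The IDOL gene Mylip rose by 0.80 ± 0.14 and 0.63 ± 0.14 in the same comparisons. Lpcat3 differed by -0.30 ± 0.08 and -0.42 ± 0.08. Of 18 alternatives, Lpcat3 lost its call without beads in 9 and Rxra in 2. Without array 1 of the Gr1lo cells without beads, Lpcat3 differed by -0.29 and lost its call, while Apoe (1.88), Pltp (1.57), Nr1h3 (1.25), Mylip (1.02) and Rxra (-0.86) kept theirs. Neutrophil markers, which went the way of Rxra and Lpcat3, averaged 6.80 to 6.98 in Gr1lo cells and 8.13 to 9.06 in Gr1hi cells. All 11 were lower in Gr1lo than in Gr1hi cells without beads, but unevenly. S100a9 (-6.08) and S100a8 (-5.57) differed most and Csf3r (-0.24) least. The part of these markers in the result was not tested.

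The exporters were not called between subsets, though some alternatives called them. Abca1 differed by 0.29 in Gr1lo relative to Gr1hi cells without beads, with a 95% interval from 0.02 to 0.56. With beads its difference was of the opposite sign, -0.34, with a 95% interval from -0.61 to -0.07 (limma adjusted p = 0.123 without and 0.0697 with beads). Abcg1 differed by -0.17 without beads and -0.21 with beads, with 95% intervals from -0.35 to 0.01 and from -0.39 to -0.03 (limma adjusted p = 0.166 and 0.0867). Over 18 alternatives Abca1 was called without beads in 2 (adjusted p = 0.0406 to 0.345) and with beads in 4 (adjusted p = 0.0103 to 0.562). Abcg1 was called with beads in 2 (adjusted p = 0.0306 to 0.91) and without beads in 0.

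**Figure D3:**
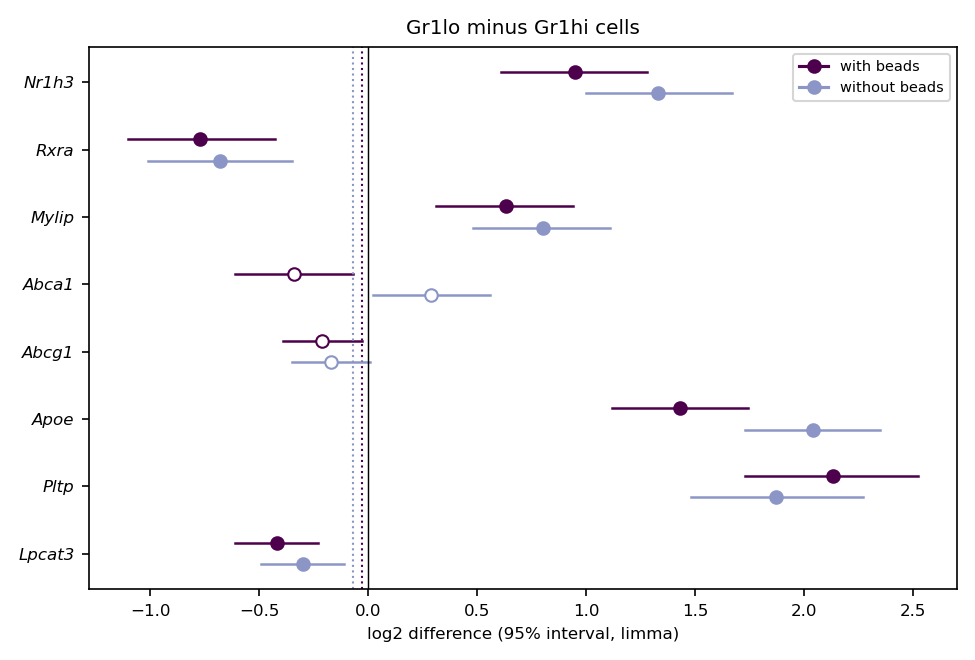
Log2 difference of Gr1lo minus Gr1hi cells for each gene, with and without beads, with 95% intervals from limma; filled points passed an adjusted p under 0.05, and dotted lines mark the median of all genes. Apoe and Pltp lie between 1.43 and 2.13, Rxra and Lpcat3 between -0.77 and -0.30, and the Abca1 points fall on opposite sides of 0.

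The order of the 4 groups differed between members. Nr1h3 stood at 8.66 ± 0.32 in Gr1lo cells with beads, 8.07 ± 0.11 in Gr1lo cells without, 7.72 ± 0.13 in Gr1hi cells with beads and 6.74 ± 0.02 in Gr1hi cells without (SD, n = 2 each). No neighbours in that order overlapped. Abca1 instead was highest in Gr1hi cells with beads (10.05 ± 0.00), followed by Gr1lo cells with beads (9.71 ± 0.26), Gr1lo cells without (9.45 ± 0.06) and Gr1hi cells without (9.16 ± 0.03), with no overlap between neighbours. Abcg1 had its higher levels in the cells with beads of either subset, 11.38 ± 0.01 in Gr1lo and 11.59 ± 0.03 in Gr1hi cells, against 11.03 ± 0.05 and 11.20 ± 0.02 without beads, and no neighbours overlapped. For Apoe, Mylip and Pltp the Gr1lo groups came first and overlapped each other, and for Rxra and Lpcat3 they came last and overlapped each other. The Gr1hi groups overlapped in Rxra alone of these 5 genes.

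Other probe sets of a member were available for Abca1, Abcg1, Pltp and Rxra. A second Abca1 probe set was at 7.47 and 7.65 in Gr1hi cells with beads, against 6.57 and 6.83, below background, without. Its measured difference of 0.86 ± 0.16 was not called among all probe sets (limma adjusted p = 0.111). The third had a mean of 5.92, below background, and differed by 0.44. The second Abcg1 probe set differed by 0.42 in Gr1lo and 0.28 in Gr1hi cells. All of these point the same way as the first probe sets. Between subsets the second Abcg1 probe set did not, at 0.03 without and 0.17 with beads, nor did the third of Abca1 with beads (0.10). For Pltp the probe sets differed in sign with beads: the second differed with beads by -0.38 ± 0.23 in Gr1lo and 0.41 ± 0.23 in Gr1hi cells, where the first differed by -0.03 and -0.28. Between subsets the Pltp probe sets ran in 1 direction, with the second higher in Gr1lo than in Gr1hi cells by 3.50 ± 0.23 without beads. The second Rxra probe set differed by -0.43 without beads and -0.33 with beads between the subsets, and the third, at a mean of 5.43, was below background. With beads in Gr1hi cells the second differed by -0.05, where the first differed by 0.14.

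Other genes of the pathway were counted in lists by role, 54 measured genes in all. With beads, 0 of 54 rose and 0 fell in Gr1hi cells, beside 0.148% and 0.0989% of all genes, and the median was -0.03. At an unadjusted p under 0.05 in limma were 10 of 54, beside 9.93% of all genes. In Gr1lo cells 0 rose and 1 fell, beside 0.0824% and 0.143% of all genes, with a median of 0.02. At an unadjusted p under 0.05 were 5 of 54, beside 13.2% of all genes. The one that fell was Cyp7b1, which encodes an oxysterol 7-alpha-hydroxylase. It was at 5.34 and 5.46 in Gr1lo cells with beads, against 5.99 and 6.17 without, all below background (-0.68 ± 0.10, limma adjusted p = 0.046). The receptor partners and cofactors had differences from -0.15 to 0.06 in Gr1lo and from -0.27 to 0.11 in Gr1hi cells. The coactivators and corepressors thus stayed within a narrow range, with Tbl1xr1, a corepressor complex subunit, at -0.27 in Gr1hi cells. The gene of LXR beta, Nr1h2, was not analysed here.

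Among genes of cholesterol release and ester storage, Nceh1, which encodes a hydrolase of cholesteryl esters, was at 10.67 and 10.75 in Gr1hi cells with beads, against 9.96 and 9.90 without (0.78 ± 0.14, limma adjusted p = 0.0928). Its size was close to that of Abca1, and it was not called. The lysosomal acid lipase gene Lipa was at 10.72 and 10.60 in Gr1lo cells with beads, against 10.47 and 10.43 without (0.21, limma adjusted p = 0.396). In Gr1hi cells Lipa differed by 0.29 and the lysosomal cholesterol transporter gene Npc1 by 0.43 (limma adjusted p = 0.368 and 0.212). This list had 5 positive and 4 negative differences in Gr1hi cells. Srebf1 encodes the lipogenic regulator SREBP-1 and carries the DR4 site shown above. In Gr1hi cells Srebf1 differed in the opposite direction to Abca1. It was at 9.13 and 9.23 in Gr1hi cells with beads, against 9.56 and 9.55 without, with a difference of -0.37 ± 0.08 that was not called (limma adjusted p = 0.156). In Gr1lo cells it differed by 0.02. The lipogenic list had a median of -0.08 in Gr1lo and -0.07 in Gr1hi cells, with 0 of 11 called in either.

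Of the macrophage LXR targets, the efferocytosis receptor gene Mertk differed with beads by 1.21 ± 0.61 in Gr1lo and 1.08 ± 0.61 in Gr1hi cells, and was not called. Its arrays were spread widely, at 7.30 and 8.45 in Gr1hi cells with beads, against 6.30 and 7.29 without. Array 2 was the higher in both of these groups. Cd5l, a secreted protein of resident macrophages, was at 10.99 on array 1 of the Gr1lo cells without beads and at 6.19 on array 2, and its difference with beads in Gr1lo cells was -1.45. The other smallest p values by list were those of Apoc1 (-0.54), Mlxipl (-0.81), Tbl1x (-0.15) and Vldlr (0.14) in Gr1lo cells and of Apoa1 (0.31), Cyp7b1 (0.18) and Vldlr (-0.25) in Gr1hi cells, none of them called but for Cyp7b1 in Gr1lo cells.

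**Figure D4:**
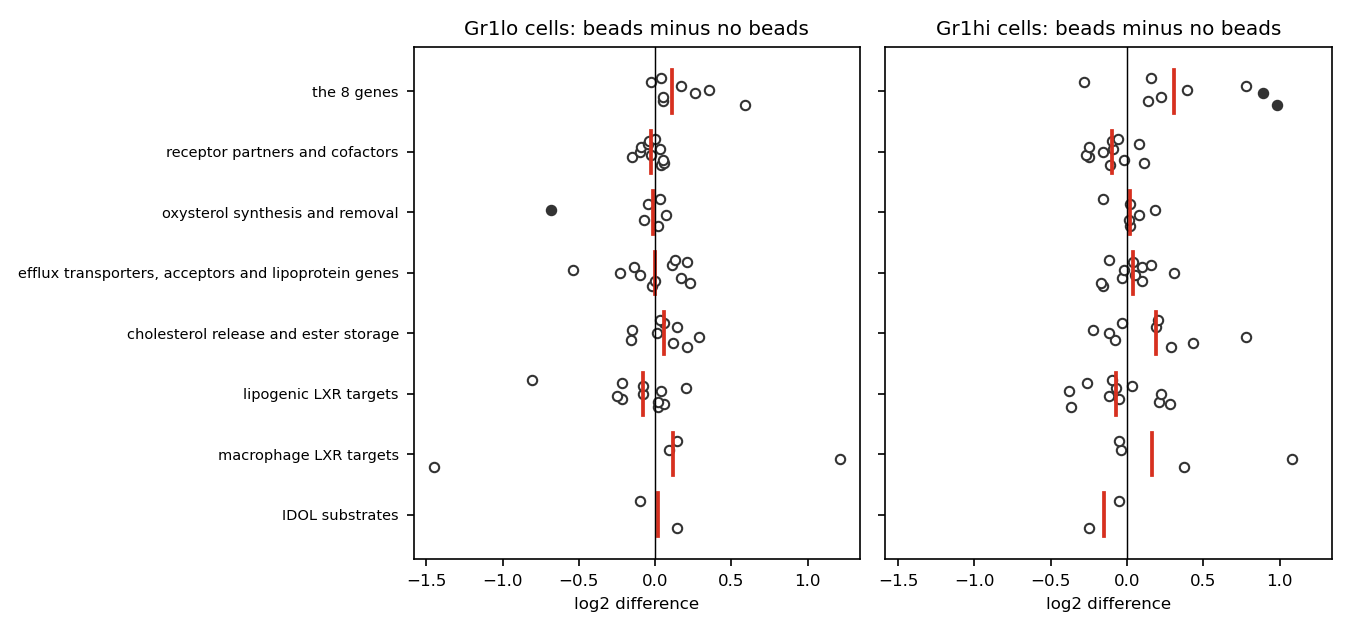
Log2 difference of bead-carrying minus bead-free cells for the 8 genes and for other genes of the pathway by list, in Gr1lo cells (left) and Gr1hi cells (right); each point is 1 gene, filled where called, and the red bar is the median of the list. The 8 genes have a median of 0.11 in Gr1lo and 0.30 in Gr1hi cells, and the 1 filled point outside them is Cyp7b1 in Gr1lo cells.

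Between the subsets the other pathway genes moved in either direction. In Gr1lo relative to Gr1hi cells, 11 of 54 rose and 12 fell without beads, beside 10% and 13.6% of all genes. With beads 12 rose and 12 fell, beside 11.8% and 14.6% of all genes. Lpl, which encodes lipoprotein lipase, differed by -3.53 ± 0.38 in Gr1lo relative to Gr1hi cells without beads (limma adjusted p = 0.000331), at 10.24 and 8.80 in Gr1lo cells and 13.06 and 13.04 in Gr1hi cells. The release and storage genes were mostly lower: Nceh1 (-1.61), the lysosomal cholesterol transporter genes Npc1 (-1.53) and Npc2 (-0.58), the oxysterol binding protein gene Osbpl1a (-0.49) and Lipa (-0.34) all fell without beads. With beads they differed by -2.10, -1.84, -0.66, -0.53 and -0.42 in that order, and the lipid droplet gene Plin2 by -0.54, all called. Stard4, a carrier of cholesterol in the cytosol, was the one gene of that list that rose (1.39 without and 1.46 with beads). The HDL receptor gene Scarb1 rose by 0.42 without beads, and Cyp27a1, which encodes sterol 27-hydroxylase, an enzyme that makes an LXR ligand, by 0.61 without and 0.53 with beads.

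Of the other LXR targets, Smpdl3a, a phosphodiesterase gene, rose by 0.52 in Gr1lo relative to Gr1hi cells without beads and by 0.65 with beads. The fatty acid genes Elovl5, an elongase (0.92 and 0.62), Scd1, a desaturase (0.88 and 0.65), and Acsl3, an acyl-CoA synthetase (0.39 and 0.44), rose in the same comparisons. Fads1, a desaturase, fell by 1.49 and 1.21, and Srebf1 (-0.35), the elongase gene Elovl6 (-0.41) and Vegfa (-0.38, below background) fell without beads alone at this threshold. Whether the subset difference of these 3 depends on bead state was tested by the difference of the bead effects, which limma called for none of the 54. The IDOL substrate gene Lrp8 fell by 0.62 and 0.68. The means of Lrp8, Scd1, Acsl3 and Osbpl1a over the 8 arrays were below background, as was Fads1 in Gr1lo cells.

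In Gr1lo relative to Gr1hi cells, the cofactors Ncoa2 (0.62 without and 0.79 with beads) and Gps2 (0.39 and 0.46) were higher. Tbl1x (-0.69 and -0.58) was lower in both comparisons. Among cells with beads, Rxrb (0.37), Ncoa1 (0.35) and Ep300 (0.34) were called higher in Gr1lo than in Gr1hi cells. On chromosome 7, RefSeq places Apoe next to Apoc1, Apoc4 and, beyond 1 more gene, Apoc2. Apoc2, the activator of lipoprotein lipase, rose in Gr1lo relative to Gr1hi cells as Apoe did, by 1.69 ± 0.11 without beads and 1.45 ± 0.11 with beads (limma adjusted p = 2.42e-05 and 4.10e-05). Apoc1 did not follow: it differed by -0.54 in Gr1lo relative to Gr1hi cells with beads and was not called between subsets without beads. Apoc4 was below background. Apoa1, at levels below background, differed by -0.34 in Gr1lo relative to Gr1hi cells with beads. Cyp7b1, also below background, was 1.10 higher in Gr1lo than in Gr1hi cells without beads.

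Genes with array profiles most like each member were taken from 8561 genes above background with other than provisional symbols, as a description over 8 arrays that share 4 groups. For Apoe these were Itgb5, an integrin chain, Tmem51 and Tgm2, a transglutaminase (Pearson r = 0.9966, 0.9945 and 0.9922). For Nr1h3 they were Epb41l2, Calhm6 and Rpgrip1 (r = 0.9938, 0.9906 and 0.9855). For Abca1 they were Rora, a nuclear receptor gene, Slc26a11 and Fcgbp (r = 0.9687, 0.9532 and 0.9413). The values for Abca1 and Abcg1 were the lowest among the members. For Abcg1 the list was Myo10, a myosin, Gga2 and Arhgap17 (r = 0.9556, 0.9448 and 0.9424). For Pltp it was Ccnd2, a cyclin, Exosc8 and Bptf (r = 0.9944, 0.9923 and 0.9915). No test was made on these likenesses. Mylip was nearest to Mllt10, Plek and Tgm3 (r = 0.9941, 0.9872 and 0.9840). Rxra was nearest to Ywhae, Srm and Cherp (r = 0.9948, 0.9931 and 0.9928). Lpcat3 was nearest to Mpp1, Cfdp1 and Uap1l1 (r = 0.9926, 0.9883 and 0.9870).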

How the data were processed

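The table the authors deposited holds log2 values of 45101 probe sets on 8 arrays, used without further normalisation. RNA, per the labels' protocols, was extracted from sorted cells with TRIzol and RNeasy, amplified and labelled with biotin. RMA normalisation and limma are named per the submitters' processing notes, and the sources used here give no versions. RMA sets the arrays to a common distribution, so a shift of all genes would not show.

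Of the probe sets, 34945 carried 1 symbol in the platform annotation; 932 with several, 9160 with none listed and 64 controls were left out. The background level of 6.98 is the 95th percentile of the means of 115 genes of olfactory, vomeronasal, taste and keratin-associated families. A model of the 4 group means, over 8 arrays and 18193 genes, was fitted with limma 3.58.1 in R 4.3.3 (eBayes defaults), with Benjamini-Hochberg correction over all genes. Genes with an adjusted p under 0.05 were called, two-sided. SE is limma's moderated standard error and SD the spread between the arrays of a group. The scripts were tested on simulated data. Tables and plots used pandas 2.3.3 and matplotlib 3.10.9.

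The members and lists were chosen with earlier results of these data known. All members are named; of the other pathway genes, those called in any comparison, the smallest p of each list in each bead comparison, and Srebf1. Markers are named beside results they move with. Cd5l and Apoc4 were chosen after their values were seen. The 3 most alike genes were ranked by Pearson r. The motif and the replicate block within subsets were chosen after seeing the data. Alternatives were a filter on dim genes, the mean of all probe sets, all probe sets tested, the compared arrays alone, trend and robust estimation, array weights, the omission of each array, median centring, cyclic loess and a block for replicate number.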

Additional observations from a re-analysis of the deposited data

How the results depend on the processing

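Of the results for single members under the alternatives, 770 kept their direction and their side of the threshold, 47 lost a call, 16 gained one and 15 turned sign. For beads in Gr1hi cells, where 2 members were called, limma called 1 without genes under background, with every probe set tested, with centring on array medians, with cyclic loess and with the replicate block, and 0 with the mean of all probe sets. It called 3 with the compared arrays alone, with trend and robust estimation, with array weights and with a block within each subset. In Gr1lo cells trend and robust estimation called 1, against 0, and averaged over both subsets the mean of all probe sets called 1, against 3. Between subsets with beads, 8 of 8 were called without genes under background and with trend and robust estimation, against 6. Leaving out 1 array changed which members were called for beads in Gr1hi cells, for the average and for both subset comparisons. In Gr1lo cells and for the difference of the bead effects no member was called. Calls over all genes changed with the array left out as well.

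Signs turned, in uncalled results, for Pltp with the mean of all probe sets (0.07 in Gr1hi cells and -0.27 for the difference of bead effects) and with cyclic loess (0.05 in Gr1lo cells), and for Abcg1 with the mean of all probe sets (0.05 for the difference). Leaving out 1 array also turned signs, over ranges of -0.03 to 0.31 for Rxra in Gr1hi cells, and in Gr1lo cells of -0.13 to 0.24 for Rxra, -0.17 to 0.26 for Mylip, -0.33 to 0.28 for Pltp and -0.01 to 0.09 for Lpcat3. For the difference of bead effects the ranges were -0.27 to 0.10 for Rxra, -0.39 to 0.05 for Mylip and -0.05 to 0.56 for Pltp. The causes were not tested.

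Replicate numbers went with a shared difference within each subset, where the bead comparisons are made, and hardly across subsets. The differences between replicates 1 and 2 correlated at 0.601 between the Gr1hi groups and 0.367 between the Gr1lo groups over 8790 genes. Across subsets they correlated at 0.036 to 0.09. The main model has no term for replicate number. With the replicate block Nr1h3 in Gr1hi cells had an adjusted p of 0.0531, and Abca1 between subsets with beads was called (0.0495). A block within each subset, added after seeing the data, called Apoe in Gr1hi cells (0.0257) and averaged (0.0166), and ended the call of Lpcat3 between subsets without beads (0.0585). The compared arrays alone could not be used for the average and the difference, which take all 8.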
